A study of Homo sapiens with 12 samples.

Results

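The genes described here are 10 immediate-early genes: the zinc-finger transcription factor genes EGR1, EGR2 and EGR3, the orphan nuclear receptor genes NR4A1, NR4A2 and NR4A3, the immediate early response genes IER2, IER3 and IER5, and SRF. They were chosen by symbol, and all 10 were among the 56609 symbols of the count table. All 10 also passed the filter on low counts, which kept 21698 genes. RNA was sequenced from A375, an established human melanoma cell line, in 4 groups of 3 libraries. Wild-type cells received DMSO or 500 nM JQ1 for 48 h, and cells in which MAPKAPK2 had been knocked out with CRISPR/Cas9 received the same treatments. JQ1 inhibits BET bromodomain proteins by displacing them from acetylated chromatin, and MAPKAPK2 encodes the stress-activated kinase MK2, which acts downstream of p38. The series concerns how loss of this kinase raises resistance to BET inhibitors. Whether the knockout was a single clone or a pool, and whether the wild-type cells went through the editing steps, is not given in the sources used here. The labels do not say that replicates came from separate cultures, so p-values measure the spread between these libraries, which may be technical.

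Immediate-early genes are transcribed within minutes of a stimulus without new protein synthesis, and many of their RNAs are short-lived. Growth factor signals reach them through ERK and the ternary complex factors (the ELK proteins) that sit with SRF on CArG boxes, and stress and cAMP signals through CREB-type factors on cAMP response elements. p38 and MK2 feed into both arms and also act on the stability of RNAs with AU-rich elements. The EGR factors activate growth and differentiation genes and are held in check by the NAB corepressors, and the NR4A receptors bind DNA without a classical ligand. A375 carries an activated BRAF, which keeps the ERK pathway on in the absence of a stimulus. All cultures here were measured at a single time, so the values are levels at that time. Neither an induction nor a steady state can be read from them.

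RefSeq sequences (GRCh38.p14) of the 250 bases before an annotated start were used for 7 of the 10 genes. No window was used for EGR3, IER3 or NR4A2. The 5 shown are of genes whose levels are compared below. EGR1 (chr5:138465229-138465478) and SRF (chr6:43171019-43171268) are shown because both carry CArG boxes while their values with JQ1 lay on opposite sides of 0. Of these values only that of SRF in knockout passed the threshold used below, and the calls changed without knockout JQ1 replicate 3. IER2 (chr19:13150161-13150410) and IER5 (chr1:181088450-181088699) are shown because both rose with JQ1, and NR4A3 (chr9:99821635-99821884) is shown as one of the NR4A genes, which were lower in the knockout. All 5 lie on the plus strand. Capitals mark matches on either strand to the CArG box, to TGACG (the half-site of a cAMP response element) or to the EGR-type sites GCGTGGGCG and GCGGGGGCG.
EGR1: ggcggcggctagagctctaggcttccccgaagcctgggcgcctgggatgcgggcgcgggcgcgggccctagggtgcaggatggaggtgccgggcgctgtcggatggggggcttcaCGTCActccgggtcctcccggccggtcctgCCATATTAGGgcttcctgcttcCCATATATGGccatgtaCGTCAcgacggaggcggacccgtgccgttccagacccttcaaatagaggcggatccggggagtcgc
SRF: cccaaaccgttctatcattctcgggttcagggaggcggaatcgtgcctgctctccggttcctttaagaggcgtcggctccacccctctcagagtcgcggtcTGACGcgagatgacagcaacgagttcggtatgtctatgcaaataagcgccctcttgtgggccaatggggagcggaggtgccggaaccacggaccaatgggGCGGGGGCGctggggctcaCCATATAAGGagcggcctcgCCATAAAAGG
IER2: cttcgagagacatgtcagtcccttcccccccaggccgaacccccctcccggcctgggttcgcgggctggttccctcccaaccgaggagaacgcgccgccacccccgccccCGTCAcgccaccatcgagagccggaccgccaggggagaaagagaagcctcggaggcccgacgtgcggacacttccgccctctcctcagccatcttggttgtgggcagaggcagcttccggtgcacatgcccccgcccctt
IER5: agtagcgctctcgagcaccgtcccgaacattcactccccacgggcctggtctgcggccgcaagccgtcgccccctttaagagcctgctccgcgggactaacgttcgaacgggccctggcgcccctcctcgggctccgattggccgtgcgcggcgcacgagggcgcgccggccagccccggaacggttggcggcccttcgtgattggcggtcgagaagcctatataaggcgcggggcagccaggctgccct
NR4A3: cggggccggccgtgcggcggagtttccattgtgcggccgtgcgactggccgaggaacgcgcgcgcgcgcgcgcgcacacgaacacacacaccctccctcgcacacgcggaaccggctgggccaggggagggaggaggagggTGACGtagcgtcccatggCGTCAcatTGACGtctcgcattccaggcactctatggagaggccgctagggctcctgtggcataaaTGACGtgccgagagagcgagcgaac
The EGR1 window held 2 CArG boxes and 2 TGACG matches, and the SRF window held 2 CArG boxes, 1 TGACG and 1 EGR-type match. The second SRF start in the table had no match. The NR4A3 window held 4 TGACG matches and no CArG box, and neither of the 2 NR4A1 windows held a match to any motif searched. EGR2, not printed, had 1 CArG box and 2 TGACG matches at 1 of its 3 starts and none at the others. IER2 had 1 TGACG match, and the IER5 window had no match to any of these motifs. No window shown held AAAGGTCA, the site that NR4A monomers bind. Of the 35114 windows of that length in the RefSeq table, 1.16% held a CArG box, 21.2% held TGACG, 5.37% held an EGR-type site and 1.05% held AAAGGTCA. These matches describe letters only, and no factor binding was measured.

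Libraries held between 25316900 and 34594300 estimated counts. MAPKAPK2 had 311 to 497 counts in the 6 knockout libraries and 2483 to 3805 in the 6 wild-type libraries, so every library matched its genotype label. CPM here are counts per 1000000 of a library scaled with TMM. As a check of cell identity, the melanocyte lineage genes SOX10, MITF and S100B were at 389 to 687, 25.6 to 44.1 and 27.8 to 49.1 CPM, while the pigment genes PMEL, MLANA, TYR and DCT stayed at or below 1.45 CPM. Of 12 markers of other cell types, CD68 (8.76 to 16.7 CPM), PDGFRA (4.25 to 11.99) and KRT14 (up to 2.09) were the highest, and KRT1 was at 0 in all 12 libraries. Knockout JQ1 replicate 3 stood apart. Between replicates of a group, chi-square over its degrees of freedom (1 under sampling noise alone) was 23.8 and 25.1 for the pairs with this library, and 3.21 to 7.05 for the other pairs. Its share of counts in the abundant noncoding RNAs RN7SK, RN7SL1, RN7SL2 and RMRP was 14.6%, against 9.42% to 12.3% in the others. That share also differed by group, at 9.42% to 9.76% in wild-type DMSO, 10.5% to 11.6% in knockout DMSO, 10.6% to 11.7% in wild-type JQ1 and 11.03% to 14.6% in knockout JQ1. In this library 8 of the 10 genes were the highest of their group, against 41.4% of all tested genes. The part of RNA composition in the results was not tested. Where a call for 1 of the 10 genes changed without knockout JQ1 replicate 3, both values are given. Values of single genes in the related lists, the correlations and the most similar genes include this library and are not given without it.

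Per length, IER3 was the most abundant of the 10 in wild-type cells in DMSO, at 163 CPM per kb of its median coding transcript, followed by IER2 at 59.6 and NR4A1 at 29.2. EGR3 (12.7), EGR1 (12.1), NR4A2 (11.2), SRF (8.49) and IER5 (6.76) formed a middle group on this scale. NR4A3 (0.675) and EGR2 (0.107) were far lower. EGR2 had between 4 and 20 counts per library, too few to resolve any but large changes, and NR4A3 had between 53 and 121. Transcript lengths came from GENCODE release 29.

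**Figure D1:**
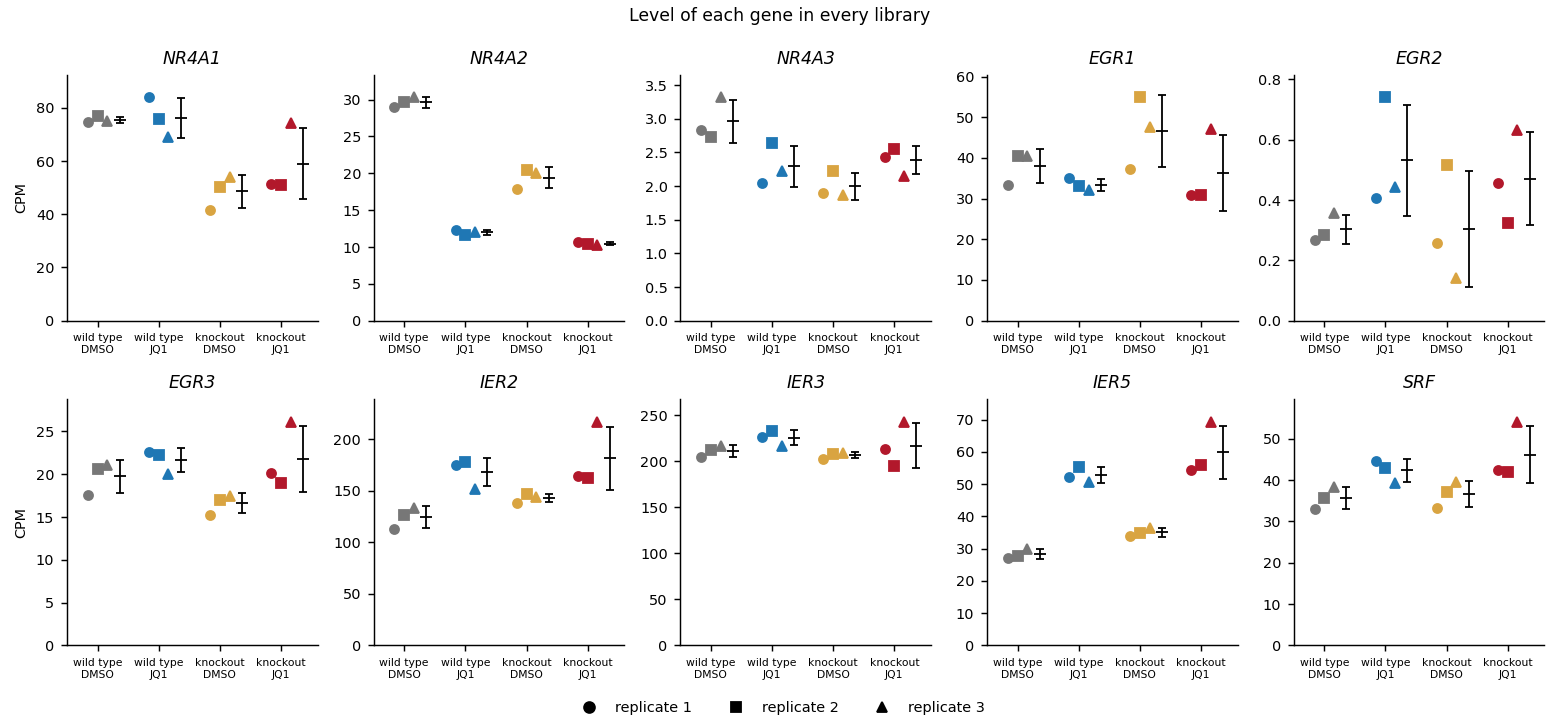
CPM (y axis, from 0, a separate scale for each gene) of the 10 genes in each of the 12 libraries by group, with the mean and SD of 3 replicates beside the points. NR4A2 is highest in wild-type DMSO (mean 29.65), lower in knockout DMSO (19.4) and lowest in the JQ1 groups (knockout 10.4), and the triangle of knockout JQ1 replicate 3 lies above its replicates for 8 genes.

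JQ1 lowered NR4A2 and raised IER5 and IER2 in both genotypes. NR4A2 fell to 0.405 times its DMSO level in wild-type and 0.538 times in knockout cells, while IER5 rose 1.86-fold and 1.71-fold. In wild-type cells 3 of the 10 genes passed an adjusted p of 0.05 (2 higher, 1 lower) in edgeR's quasi-likelihood test, where 33.1% of all 21698 tested genes passed, 16.9% higher and 16.2% lower. In knockout cells 5 passed (4 higher, 1 lower), against 34.4% of all tested genes, 16.7% higher and 17.8% lower. With knockout JQ1 replicate 3 left out, each genotype had 4 calls, against 38% of all tested genes in wild type and 33.6% in knockout. The count in wild type is thus near the background share. The median log2 fold change of the 10 was 0.11 in wild type and 0.31 in knockout, against -0.03 and -0.00353 over all tested genes. The knockout median rests in part on knockout JQ1 replicate 3. Without that library the knockout values were lower for all of the 10 but NR4A2 and NR4A3. SRF, for example, went from 0.34 to 0.21 and NR4A1 from 0.28 to 0.08. Of 5 tested melanocytic markers 3 were higher with JQ1 in each genotype (SOX10, S100B and PMEL), and the summed level of all 7 listed was 501 to 516 CPM in wild-type DMSO, 587 to 677 in wild-type JQ1, 459.7 to 535 in knockout DMSO and 559.96 to 766 in knockout JQ1. Of the 6 tested markers of other cell types, 1 was higher and 3 lower in wild type, and 1 higher and 2 lower in knockout. The part of these markers in the results was not tested. In bulk RNA, fewer cells that express a gene and less RNA per cell cannot be told apart.

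Of the NR4A receptors only NR4A2 passed with the drug. NR4A2 (chr2:156324432-156342348, GRCh38, minus strand), also known as NURR1 and best known for its role in dopamine neurons, was at 28.9, 29.6 and 30.4 CPM in wild-type DMSO and at 12.3, 11.7 and 12.1 CPM in wild-type JQ1. In the knockout it was at 17.8, 20.4 and 20.0 CPM in DMSO and at 10.7, 10.4 and 10.3 CPM in JQ1. The DMSO and JQ1 libraries did not overlap in either genotype, and all 6 JQ1 libraries were below all 6 DMSO libraries. The log2 fold change was -1.30 (SE 0.07, adjusted p = 1.18e-08 by edgeR) in wild type and -0.89 (SE 0.08, adjusted p = 5.48e-07) in knockout, and both calls held in all 21 alternative analyses. Among all tested genes, its absolute change was at the 95.2 percentile in wild type and the 88.3 percentile in knockout.

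NR4A1 (chr12:52022832-52059507, plus strand), also known as NUR77, was at 74.6, 76.9 and 75.1 CPM in wild-type DMSO and at 84.1, 75.7 and 69.1 CPM in wild-type JQ1. These groups overlapped, and the log2 fold change was 0.02 (95% interval -0.26 to 0.29, edgeR adjusted p = 0.945). In the knockout NR4A1 was at 41.7, 50.1 and 54.0 CPM in DMSO and at 51.4, 51.1 and 74.5 CPM in JQ1, where the highest value was that of replicate 3. The change was 0.28 on the log2 scale (95% interval 0.00198 to 0.56, edgeR adjusted p = 0.114) and 0.08 (adjusted p = 0.584) without that library.

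NR4A3 (chr9:99821855-99866891, plus strand), also known as NOR1, was at 2.83, 2.73 and 3.33 CPM in wild-type DMSO and at 2.04, 2.63 and 2.22 CPM in wild-type JQ1. All 3 JQ1 libraries were lower, with a log2 fold change of -0.37 that did not pass (95% interval -0.70 to -0.04, edgeR adjusted p = 0.0775). With libraries scaled by their totals only, that fall passed at -0.50 (adjusted p = 0.0212). In the knockout NR4A3 was at 1.89, 2.23 and 1.86 CPM in DMSO and at 2.44, 2.56 and 2.15 CPM in JQ1, and the groups overlapped. The log2 fold change there was 0.25 (95% interval -0.09 to 0.60, adjusted p = 0.260).

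Of the immediate early response genes, IER5 and IER2 rose with the drug and IER3 did not pass. IER5 (chr1:181088712-181092899, plus strand), a nuclear protein gene that is also induced by heat shock and radiation, was at 27.2, 27.8 and 30.0 CPM in wild-type DMSO and at 52.2, 55.4 and 50.7 CPM in wild-type JQ1. In the knockout it was at 33.8, 34.9 and 36.4 CPM in DMSO and at 54.3, 56.0 and 69.4 CPM in JQ1. All 6 JQ1 libraries were above all 6 DMSO libraries. Its log2 fold change was 0.90 (SE 0.09, adjusted p = 2.18e-06 by edgeR) in wild type and 0.77 (SE 0.09, adjusted p = 7.11e-06) in knockout, and both calls held in all 21 alternatives. Without knockout JQ1 replicate 3 the rise in knockout was 0.66 (adjusted p = 1.15e-06).

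IER2 (chr19:13150415-13154908, plus strand), a serum-induced nuclear protein gene, was at 113, 127 and 133 CPM in wild-type DMSO and at 175, 178 and 152 CPM in wild-type JQ1. In the knockout it was at 138, 146 and 143 CPM in DMSO and at 164, 163 and 217 CPM in JQ1. Neither pair of groups overlapped. The log2 fold change was 0.44 (SE 0.10, adjusted p = 0.00389 by edgeR) in wild type and 0.35 (SE 0.10, adjusted p = 0.0152) in knockout. The knockout value was 0.20 (adjusted p = 0.0470) without replicate 3 of the knockout JQ1 group, and 0.23 (adjusted p = 0.0680) with library totals only. IER3 (chr6:30743199-30744554, minus strand), which encodes a regulator of survival and ERK signalling, ranged only from 195 to 243 CPM over all 12 libraries. Its log2 fold changes with JQ1 were 0.09 (95% interval -0.05 to 0.24, adjusted p = 0.321) and 0.07 (95% interval -0.07 to 0.22, adjusted p = 0.466), and with library totals both turned negative (-0.04 and -0.05).

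SRF (chr6:43171299-43181507, plus strand), the factor that binds CArG boxes, was at 33.0, 35.6 and 38.4 CPM in wild-type DMSO and at 44.7, 43.0 and 39.3 CPM in wild-type JQ1. In the knockout it was at 33.3, 37.1 and 39.5 CPM in DMSO and at 42.4, 42.0 and 54.1 CPM in JQ1. In each genotype the JQ1 libraries were all above the DMSO libraries. The log2 fold change passed in knockout (0.34, SE 0.10, adjusted p = 0.0179 by edgeR) and not in wild type (0.25, 95% interval 0.03 to 0.46, adjusted p = 0.0770). Without knockout JQ1 replicate 3 the calls changed places, with 0.25 in wild type (adjusted p = 0.0142) and 0.21 in knockout (adjusted p = 0.0683). SRF in knockout also missed the threshold with library totals (0.0884), with only the groups compared (0.0552) and without knockout DMSO replicate 1 (0.0768). In wild type SRF also passed with no low-count filter (0.0273) and with only the groups compared (0.00572).

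Of the EGR genes only EGR3 passed with the drug, in knockout. EGR1 (chr5:138465490-138469315, plus strand), the best known ERK-induced member of the family, was at 33.3, 40.5 and 40.5 CPM in wild-type DMSO and at 35.02, 33.0 and 32.2 CPM in wild-type JQ1, where the groups overlapped. In the knockout it was at 37.4, 55.0 and 47.6 CPM in DMSO and at 30.8, 30.9 and 47.2 CPM in JQ1, the last value from replicate 3. The log2 fold change was -0.19 (95% interval -0.53 to 0.15, adjusted p = 0.397 by edgeR) in wild type and -0.36 (95% interval -0.69 to -0.02, adjusted p = 0.0979) in knockout. Without knockout JQ1 replicate 3 the knockout value was -0.59 and passed (adjusted p = 0.00182).

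EGR3 (chr8:22687659-22693302, minus strand) was at 17.6, 20.6 and 21.1 CPM in wild-type DMSO and at 22.6, 22.3 and 20.0 CPM in wild-type JQ1, which overlapped (log2 fold change 0.13, 95% interval -0.11 to 0.38, adjusted p = 0.427 by edgeR). In the knockout it rose from 15.3, 17.0 and 17.5 CPM to 20.2, 18.9 and 26.1 CPM, with no overlap (log2 fold change 0.39, SE 0.12, adjusted p = 0.0164). That call was lost without knockout JQ1 replicate 3 (0.24, adjusted p = 0.0713), without knockout DMSO replicate 1 (0.34, adjusted p = 0.0650) and with library totals (0.28, adjusted p = 0.0635). It was also lost for EGR3 with the authors' factors (0.38, adjusted p = 0.0520) and with limma on the authors' signal (0.37, adjusted p = 0.0594). EGR2 (chr10:62811996-62919900, minus strand), known for its role in myelinating Schwann cells and in lymphocytes, ranged from 0.140 to 0.742 CPM over the 12 libraries. Its intervals with JQ1, -0.14 to 1.70 in wild type and -0.31 to 1.61 in knockout on the log2 scale, allow a rise as large as that of IER5 as well as no change.

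**Figure D2:**
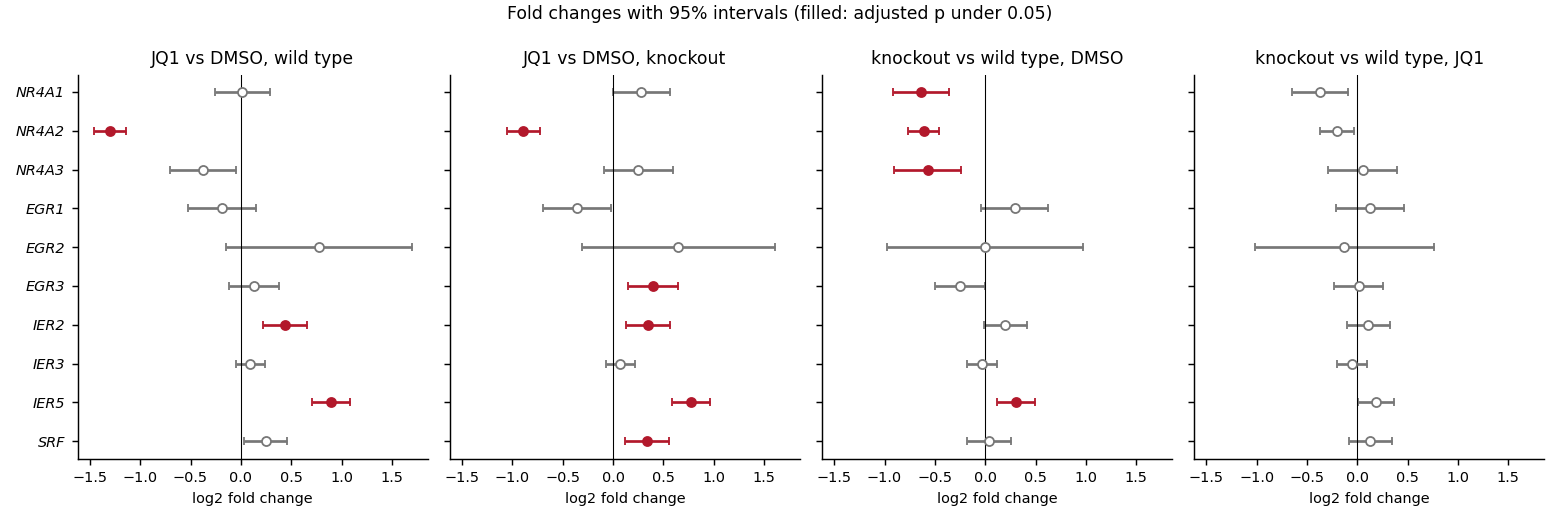
Log2 fold change (x axis) of each gene with its 95% interval in the 4 comparisons, by edgeR; filled red points passed an adjusted p of 0.05. The 3 NR4A genes lie between -0.64 and -0.57 in the knockout in DMSO, and of these NR4A2 alone passes with JQ1.

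Without the drug, all 3 NR4A genes were lower in the knockout. The knockout held 0.643 times the wild-type level of NR4A1, 0.654 times that of NR4A2 and 0.672 times that of NR4A3. IER5 was 1.24-fold higher. Of the 10 genes 4 passed in this comparison (3 lower and 1 higher) by edgeR, where 7.92% of all tested genes passed, 4.44% lower and 3.47% higher. The same 4 genes passed without knockout JQ1 replicate 3, against 11.9% of all tested genes. The median of the 10 was -0.02 on the log2 scale, against -0.00485 over all tested genes. Lineage markers moved in the same comparison. MITF was lower in the knockout (-0.58, adjusted p = 3.23e-04 in DMSO and -0.37, adjusted p = 0.0102 under JQ1) and S100B higher (0.45, adjusted p = 4.03e-04 and 0.41, adjusted p = 7.56e-04), while SOX10 was at 0.00463 in DMSO (adjusted p = 0.990). Of 12 markers of other cell types, whose summed level was 25.2 to 29.5 CPM in wild-type and 18.6 to 24.8 CPM in knockout DMSO, 1 of 6 tested passed in DMSO (PDGFRA, -0.50, adjusted p = 0.0373) and 3 under JQ1, all lower. Under JQ1 those sums were 25.7 to 29.8 CPM in wild type and 18.1 to 19.1 CPM in knockout. KRT1, KRT5 and COL1A2 were at 0 in knockout DMSO and wild-type JQ1, and KRT1, COL1A2 and CD3E in knockout JQ1. The part of these markers in the NR4A values was not tested. This comparison shares the wild-type DMSO libraries with that of JQ1 in wild type.

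For NR4A1 the log2 fold change of the knockout in DMSO was -0.64 (SE 0.13, adjusted p = 0.00605 by edgeR). For NR4A2 it was -0.61 (SE 0.07, adjusted p = 7.23e-05). Knockout and wild-type libraries did not overlap for either gene, and both calls held in all 21 alternatives, with values from -0.71 to -0.53 for NR4A1 and from -0.66 to -0.54 for NR4A2. NR4A3 was at -0.57 (SE 0.16), also without overlap but on far fewer counts, and its adjusted p was 0.0351. It passed in 10 of 21 alternatives. It did not pass with the authors' gene and library factors (-0.43, adjusted p = 0.180), with limma (-0.41, adjusted p = 0.192), with DESeq2 (adjusted p = 0.0699), with no low-count filter (adjusted p = 0.102), with a replicate block (adjusted p = 0.0524), or without any 1 of the 6 DMSO libraries (adjusted p from 0.0504 to 0.165). Relative to the median of each library, the authors' factor for NR4A3 was 1.14, 1.11 and 1.03 in wild-type DMSO and 1.01, 0.995 and 0.982 in knockout DMSO, so dividing by it narrows the difference.

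IER5 was higher in the knockout without drug by 0.31 on the log2 scale (SE 0.09, adjusted p = 0.0451 by edgeR), and all 3 knockout libraries were above all 3 wild-type libraries. It passed in 12 of 21 alternatives. The call was lost without knockout DMSO replicate 1, 2 or 3 (adjusted p 0.0571, 0.0788 and 0.135) and without wild-type DMSO replicate 1 or 2 (0.140 and 0.124). It was also lost without wild-type JQ1 replicate 1, 2 or 3 (0.0665, 0.0604 and 0.0574), and with library totals (0.0707). IER5 lies on the same arm of chromosome 1 as MAPKAPK2.

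The other 6 genes did not pass in DMSO. EGR1 was at 0.29 (95% interval -0.04 to 0.63, adjusted p = 0.339), EGR3 at -0.25 (-0.50 to -0.00248, adjusted p = 0.249) and IER2 at 0.20 (-0.02 to 0.42, adjusted p = 0.303) on the log2 scale by edgeR. IER3 was at -0.03 (95% interval -0.18 to 0.11), SRF at 0.04 (-0.18 to 0.25) and EGR2, with the fewest counts, at -0.00214 (-0.98 to 0.98).

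Under JQ1 none of the 10 genes passed between knockout and wild type by edgeR, where 8.57% of all tested genes passed, 3.01% higher and 5.56% lower. At an unadjusted p of 0.05 there were 3 of the 10, NR4A1, NR4A2 and IER5, where 4484 of all 21698 tested genes were under that value. DESeq2 and limma also called none of the 10. NR4A1 was at -0.37 (95% interval -0.65 to -0.09, adjusted p = 0.103), NR4A2 at -0.20 (-0.37 to -0.03, adjusted p = 0.146) and IER5 at 0.18 (0.00186 to 0.37, adjusted p = 0.238). Without knockout JQ1 replicate 3, NR4A1 was at -0.58 and passed (SE 0.09, adjusted p = 8.42e-04), and 10.5% of all tested genes passed. In that fit NR4A2 was at -0.19 (adjusted p = 0.198) and NR4A3 at 0.12 (adjusted p = 0.745). Thus with this library left out NR4A1 was called lower in the knockout with and without the drug, and NR4A2 and NR4A3 only without the drug. In that fit the change of the knockout difference with the drug was not called for NR4A2 (edgeR adjusted p = 0.123) or NR4A3 (adjusted p = 0.224).

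The difference between the 2 responses to JQ1 was tested directly as an interaction. None of the 10 passed by edgeR, where 0.134% of all tested genes did, 0.0323% higher and 0.101% lower, and none passed with DESeq2 or limma. At an unadjusted p of 0.05 there were 2 of the 10, both of the NR4A family, where 1817 of all 21698 tested genes were under that value. The fall of NR4A2 was smaller in knockout by 0.41 on the log2 scale (SE 0.11, unadjusted p = 0.00166, adjusted p = 0.241), and NR4A3 had a response more positive by 0.62 (SE 0.22, unadjusted p = 0.0138, adjusted p = 0.456). NR4A1 differed by 0.27 (95% interval -0.13 to 0.66), and by 0.06 without knockout JQ1 replicate 3, a fit in which 0.395% of all tested genes and none of the 10 passed. For IER5 the interval of the difference was -0.38 to 0.14, and for IER2 it was -0.39 to 0.22. Without that library IER5 was at -0.24 (adjusted p = 0.245), IER2 at -0.24 (adjusted p = 0.310) and EGR1 at -0.41 (adjusted p = 0.316).

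The 10 genes also varied between replicates of a group. Deviations from the group mean moved together for EGR1, EGR3, IER2, IER3, IER5, NR4A1 and SRF. Over the 12 libraries, after the group means were subtracted, Pearson's r of these deviations was 0.965 between EGR3 and SRF, 0.954 between EGR3 and IER2 and 0.897 between EGR1 and EGR3. The lowest r among these genes was 0.773, between EGR1 and IER3. It was 0.284 between NR4A1 and NR4A2 and -0.372 between NR4A1 and NR4A3. Knockout JQ1 replicate 3 deviated by 0.41 for EGR1, 0.36 for NR4A1 and 0.24 for SRF on the log2 scale, against -0.03 for NR4A2. The points are the same 12 libraries for every pair, so these correlations are a description. Values of r without knockout JQ1 replicate 3, or for pairs of other genes, were not computed. The lowest value of a group was in wild-type DMSO replicate 1 for 9 of the 10 genes and in knockout DMSO replicate 1 for 8, against 34.5% and 36.6% of all tested genes. In each JQ1 group replicate 1 was lowest for only 2 of the 10, against 31.8% of all tested genes. Wild-type JQ1 replicate 3 was lowest for 7, against 39.1%.

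**Figure D3:**
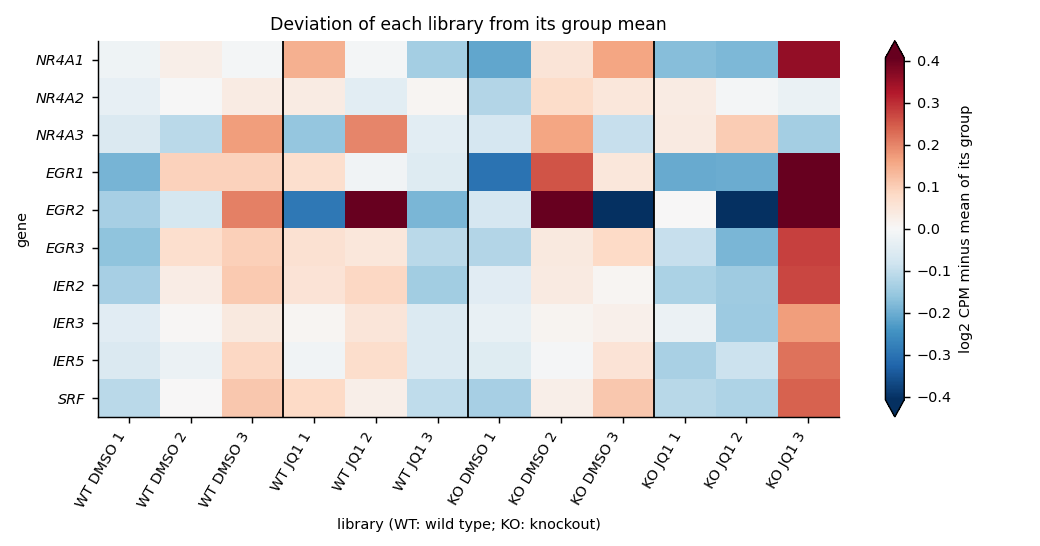
Log2 CPM of each gene (rows) in each library (columns) minus the mean of its group; the colour scale is symmetric, and EGR2 values beyond it are shown at its ends. Knockout JQ1 replicate 3 is above its group mean for 8 of the 10 genes, NR4A2 and NR4A3 being the exceptions.

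For each gene the 2 most similar others were sought by Pearson's r of log2 CPM over the 12 libraries, among genes averaging 5 CPM or more. IER5 was closest to ARF5 (0.994) and PDIA4 (0.993), NR4A2 to TMPO (0.986) and ADNP (0.983), and IER2 to ZGPAT (0.983) and PRPF31 (0.983). SRF was closest to MAP2K3 (0.983) and LRRC8A (0.979), and NR4A1 to SH3BP5L (0.964) and TMEM158 (0.957). EGR3 paired with CDC25B (0.941) and PKD1 (0.935), IER3 with SLC12A4 (0.938) and FLYWCH1 (0.930), and EGR1 with SCARB1 (0.934) and ARHGAP23 (0.930). For NR4A3 the closest were AC245060.5 (0.893) and JADE3 (0.812), and for EGR2 they were AC011611.3 (0.861) and NOP14-AS1 (0.847). None of these matches was among the 10 genes. EGR2 and NR4A3 lay below 5 CPM and could not be picked, and the others were few among all genes searched. The absence of members among the matches therefore says little about the group of 10. Within it, r over the 12 libraries was 0.940 between IER2 and SRF, 0.936 between IER2 and IER5, and -0.968 between IER5 and NR4A2, which changed in opposite directions with the drug.

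Among other immediate-early genes, those that passed with JQ1 were nearly all higher. Of 27 listed, 26 were tested and 14 were higher with JQ1 in wild type with none lower by edgeR, where 16.9% of all tested genes were higher. In knockout 15 were higher and 1 lower, where 16.7% were higher. Medians were 0.38 and 0.30 on the log2 scale. This list and the cofactor and cytoskeletal lists below were chosen with earlier results of these data known. Their counts beside the shares of all tested genes are therefore a description. CTGF, a secreted matrix protein gene that responds to serum, went from 12.5 ± 0.301 to 34.8 ± 1.93 CPM in wild type (SD, n = 3; log2 fold change 1.48). HBEGF, a growth factor of the EGF family, rose by 1.39 and 1.46, and the small GTPase gene RHOB by 1.35 and 1.43, in wild type and knockout. JUN, a subunit of AP-1, rose by 1.08 in wild type and 1.53 in knockout, and CTGF rose by 1.31 in knockout. Adjusted p by edgeR for these was at most 6.47e-05. When knockout JQ1 replicate 3 was left out, 17 were higher and 1 lower in wild type, and 12 higher and 2 lower in knockout, where 38% and 33.6% of all tested genes were called in either direction. The fall of NR4A2 in both genotypes was thus in the direction that few called genes of this list took. EGR4 had too few counts to be tested.

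In the knockout without drug 4 of these 26 genes were lower and 2 higher, where 4.44% and 3.47% of all tested genes were. KLF4, a zinc-finger factor, was at -0.68, HBEGF at -0.67 and RHOB at -0.65 on the log2 scale (edgeR adjusted p 0.0162, 0.0222 and 9.24e-04). Under JQ1 6 were lower and none higher, where 5.56% and 3.01% of all tested genes were, among them the stress-induced factor ATF3 at -0.87, HBEGF at -0.60 and RHOB at -0.58 (adjusted p 0.0107, 0.0174 and 0.00136). The number lower under JQ1 was 10 without knockout JQ1 replicate 3, where 10.5% of all tested genes were called in either direction. HBEGF and RHOB were thus lower in the knockout with and without drug.

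Among cofactors of SRF, the EGR and the NR4A factors, 3 of 9 were higher with JQ1 in each genotype and none lower, where 16.9% of all tested genes were higher in wild type and 16.7% in knockout. The number in wild type was 5 without knockout JQ1 replicate 3, where 38% of all tested genes were called in either direction. MKL1, which encodes the SRF coactivator MRTF-A, rose by 0.63 in wild type and 0.64 in knockout (edgeR adjusted p 0.00565 and 0.00484). ELK1, a ternary complex factor, rose by 0.35 in both (9.00e-04 and 8.14e-04). MKL2, encoding MRTF-B, rose by 0.19 in wild type (0.0333), and ELK4, another ternary complex factor, rose by 0.24 in knockout (0.0417). In the knockout, MKL2 was lower by log2 fold changes of -0.25 in DMSO (0.0271) and -0.40 in JQ1 (9.05e-04), and ELK4 by -0.33 in DMSO (0.0280).

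Cytoskeletal targets of SRF changed in both directions. Of 13 listed, 12 were tested, and with JQ1 7 were higher and 2 lower in wild type and 5 higher and 2 lower in knockout. Over all tested genes 16.9% were higher and 16.2% lower in wild type, and 16.7% and 17.8% in knockout. MYH9, a nonmuscle myosin heavy chain, rose by 0.72 in wild type and 0.77 in knockout. FHL2, a LIM-domain cofactor, rose by 0.61 and 0.53, and ACTG1, cytoplasmic actin, by 0.57 and 0.63, in the same order. MYL9, a myosin light chain, fell instead, from 3.19 ± 0.142 to 0.363 ± 0.105 CPM in wild type (SD, n = 3; log2 fold change -3.14, edgeR adjusted p = 7.31e-08) and by 2.63 on the log2 scale in knockout. In the knockout in DMSO only ACTA2, smooth muscle actin, passed, at 0.71 (adjusted p = 0.0242), where 3.47% of all tested genes were higher and 4.44% lower, and without knockout JQ1 replicate 3 there were 2 higher (11.9% of all tested genes either way). Under JQ1 FHL2 (-0.25, adjusted p = 0.0164) and VCL, the gene of the focal adhesion protein vinculin (-0.19, adjusted p = 0.0459), were lower, where 5.56% of all tested genes were lower, and without that library 4 were lower (10.5% of all tested genes either way).

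**Figure D4:**
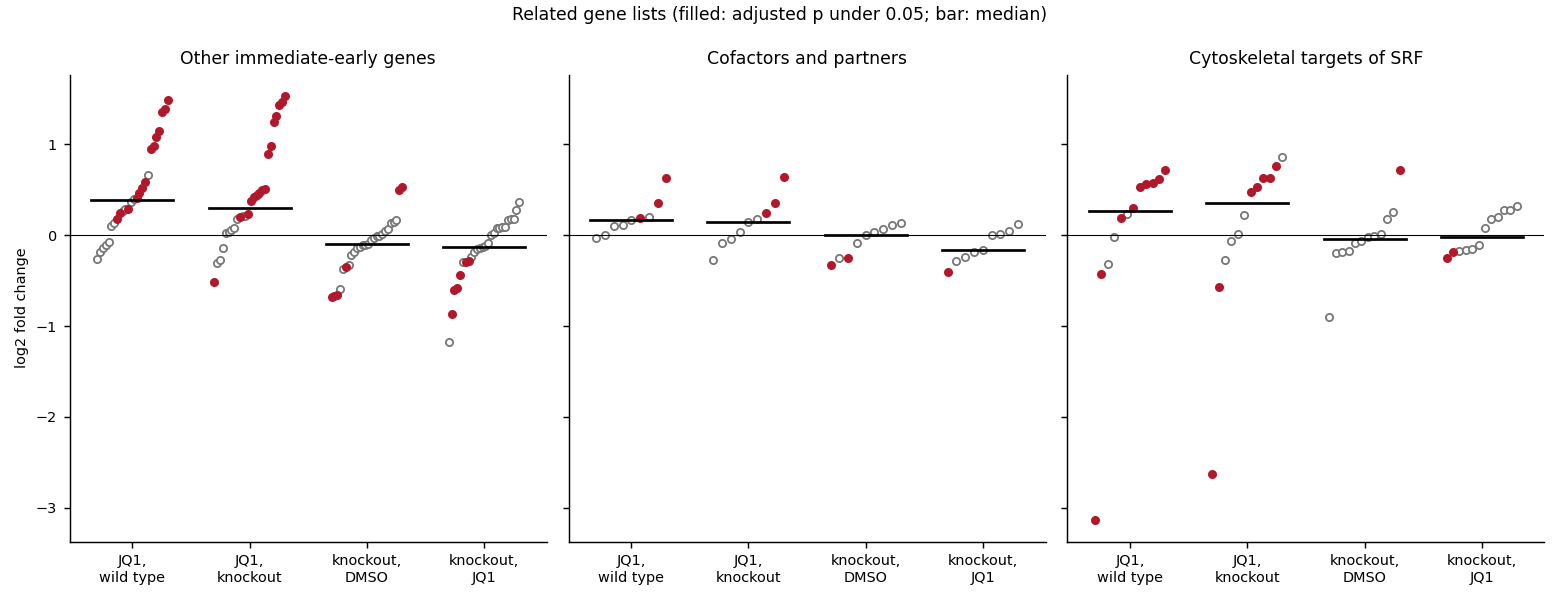
Log2 fold change (y axis) of each tested gene of the 3 related lists in the 4 comparisons, sorted within each; filled red points passed an adjusted p of 0.05 and bars are medians. Other immediate-early genes lie mostly above 0 with JQ1 (medians 0.38 and 0.30), and MYL9 is the low point among the cytoskeletal targets (-3.14 and -2.63).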

How the data were processed

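The authors deposited estimated counts per gene symbol for 12 libraries, and a second table of normalized signal, in which each rounded count had been divided by a value that varied with both gene and library. Per the submitters' processing notes, Trim Galore, cutadapt, FastQC, MultiQC, kallisto and DESeq2 and the build GRCh38.p10 were used; the annotation and the strand setting are not given in the sources used here. Libraries were directional and depleted of ribosomal RNA, per the labels. Reads could be shared with opposite-strand genes that overlap EGR3 (AC055854.1), IER2 (AC011446.2), NR4A1 (AC025259.3) and IER3 (IER3-AS1). The first 3 averaged 14.4, 1.86 and 19.7 counts per library, against 602 for EGR3, 4630 for IER2 and 1977 for NR4A1. IER3-AS1 was not found under that symbol in the count table.

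Columns were matched to samples by name, and untreated in the titles was read as DMSO from the treatment field. Counts were rounded, as the unit required. Genes were filtered with filterByExpr and libraries scaled with TMM. A model with a term per group over all 12 libraries was tested with edgeR 4.0.16 (limma 3.58.1, DESeq2 1.42.0, R 4.3.3) by its quasi-likelihood test, with Benjamini-Hochberg adjustment over 21698 genes and a threshold of 0.05. SE is the absolute log2 fold change over the square root of F. The test was checked on simulated data. Gene positions came from GENCODE release 29 and promoter windows from RefSeq.

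All 10 genes are named. From each of 3 related lists, up to 3 genes per comparison with the largest absolute change past the threshold are named. The members and lists were chosen with earlier results of these data known. Alternatives changed the test, scaling, filter, libraries, replicate block and threshold.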

Additional observations from a re-analysis of the deposited data

How the results depend on the processing

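Numbers of the 10 genes called were recomputed under 22 alternatives, or 21 for the interaction, where fitting only the groups compared was not run. Calls over all tested genes are in brackets. With JQ1 in wild type 3 (7187) were called, and 5 (8740) when only the groups compared were fitted. In knockout 5 (7472) were called, 7 (7568) with no low-count filter, 3 (7659) with library totals only and 2 (5120) at an adjusted p of 0.01. In the knockout without drug 4 (1718) were called and 2 (926) at 0.01. Under JQ1 0 (1860) were called, and 1 (2193) with no low-count filter (NR4A1, adjusted p 7.40e-04). Over all tested genes the knockout in DMSO also had 2619 calls with only the groups compared, 2650 without knockout JQ1 replicate 3, and 1092, 1096 and 1102 without knockout DMSO replicate 3 and wild-type DMSO replicates 2 and 1. Under JQ1 there were 922 with only the groups compared and 1223 without wild-type JQ1 replicate 2. The interaction (29) had 6 at 0.01, 130 with DESeq2, 236 with no low-count filter and 8 to 88 with a library left out, 88 without knockout JQ1 replicate 3. At 0.01, JQ1 in wild type had 4781 and the knockout under JQ1 965. With each library left out in turn, the counts ran from 3 to 4 for JQ1 in wild type, 4 to 5 in knockout, 2 to 4 for the knockout in DMSO, 0 to 1 under JQ1 and 0 to 0 for the interaction. Scaling by library totals shifted the median of all tested genes by -0.13 with JQ1 in wild type and by -0.12 in knockout. No fold change called in the main analysis changed sign in any alternative run.

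Replicate numbers are shared by the groups, but same-numbered libraries did not consistently deviate together. Over genes averaging 5 CPM or more, r ran from -0.486 to 0.374, and 2 of 12 libraries correlated best with their own number. The knockout libraries numbered 1 and 3 had positive r (0.374 and 0.312) between DMSO and JQ1. Among the 10 genes, replicate 1 was lowest for 9 in wild-type DMSO and for 8 in knockout DMSO, but for only 2 in each JQ1 group. With the replicate number as a block, 3, 5, 3, 0 and 0 of the 10 genes were called in the comparisons in the order above; NR4A3 in the knockout in DMSO was the call lost (adjusted p 0.0524). Depth limits EGR2 and NR4A3 most.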
